A study of Bos taurus with 96 samples.

Results

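GSTM2 (ENSBTAG00000016472), GSTM3 (ENSBTAG00000001842) and GSTT1 (ENSBTAG00000040298) encode glutathione S-transferases, and their mRNA was followed in the liver and skeletal muscle of the same dairy cows. The 3 genes were chosen by name, from 24616 genes counted in every library, and all 3 had reads in each of the 96 libraries. The study had listed these genes for lower expression in the muscle of Fert+ cows, so the muscle genotype values below are no independent evidence for that difference. The tissue comparison and the course over the lactation cycle did not enter the study's choice. The agreement of cows between tissues did not enter it either, but it uses the muscle levels on which that choice rested.

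The libraries came from 16 Holstein cows of 1 herd and of mixed parity. Of these, 8 had good (Fert+) and 8 had poor (Fert-) genetic merit for fertility, assigned from breeding values for calving interval, and the genotype labels stand for merit groups rather than for alleles at a locus. Liver (percutaneous punch) and semitendinosus muscle were biopsied in late pregnancy (LP), early lactation (EL, shortly after calving) and mid lactation (ML), which gave 16 libraries per tissue and time-point and 8 per genotype within them. The cows were not bred again in the lactation that was sampled, so EL and ML were non-pregnant stages of the animals biopsied at LP. There was no separate control group, and the 6 libraries of a cow are repeated samples of 1 animal.

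Cytosolic glutathione S-transferases join the tripeptide glutathione to electrophilic compounds, which makes them more soluble and easier to export from the cell. The mu class (GSTM genes) and the theta class (GSTT genes) are separate branches of the family. Liver is the classical organ of glutathione conjugation, and many of these genes are controlled there by the stress-response factor NRF2. In people, deletions of GSTM1 and GSTT1 are common.

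Total counts ran from 14966847 to 26358063 read pairs in liver and from 15279337 to 22018740 in muscle. The 10 hepatocyte markers summed to at least 79962 CPM (read counts scaled to a common library size) in every liver library and to at most 167 CPM in any muscle library. Of the libraries, 13 had 50 or more read pairs for at least 11 of a set of 19 genes, and the other 83 libraries for at most 3 of them. They are called counting batch B below, a name for that property of the counts and not a date or a run that the labels give. In muscle these were 5 libraries, all of the Fert- cows 164 and 419, and in liver they were 8 libraries, 6 of them Fert+.

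All 3 genes were expressed in both tissues, but the excess in liver ranged from large (GSTM2, GSTT1) to slight (GSTM3). For comparison between tissues, CPM were scaled over all 96 libraries with TMM factors, which correct for differences in RNA composition. These CPM were not divided by transcript length, so levels of different genes are not compared. In bulk tissue, fewer cells of a type and less RNA per cell cannot be told apart.

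GSTM2, a mu-class enzyme, had a median of 68.7 CPM in liver at LP (range 24.5 to 207), 28.0 at EL (1.07 to 141) and 201 at ML (103 to 433). In muscle its medians were 1.77 CPM at LP (0.898 to 14.5), 2.16 at EL (0.236 to 8.81) and 3.11 at ML (1.24 to 15.8). The tissues did not overlap at LP or ML, and at EL the lowest liver libraries fell inside the muscle range. Liver was higher by 33.5-fold at LP (log2 5.06 ± 0.42 SE, adjusted p = 9.53e-20 in edgeR's quasi-likelihood test), by 20.4-fold at EL (4.35 ± 0.41, 5.66e-17) and by 59.6-fold at ML (5.90 ± 0.43, 8.69e-23). Liver exceeded muscle within the same cow in 16 of 16 cows at LP and ML and in 15 of 16 at EL. The exception was cow 164, with 5.02 CPM in liver and 8.81 in muscle.

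GSTT1, the theta-class gene, had liver medians of 130 CPM at LP, 112 at EL and 149.5 at ML, with a lowest library of 13.9 and a highest of 210.5 over the time-points. Muscle medians were 7.28 CPM at LP, 5.67 at EL and 7.38 at ML, with a highest library of 14.8. The tissues were separated at each time-point, narrowly at EL, where the lowest liver library had 13.9 CPM and the highest muscle library 13.1. The excess in liver was 17.7-fold at LP (log2 4.14 ± 0.35, adjusted p = 1.71e-19), 16.3-fold at EL (4.03 ± 0.35, 5.87e-19) and 21.7-fold at ML (4.44 ± 0.35, 8.97e-21), and it was seen in all 16 cows each time.

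GSTM3, also of the mu class, had tissue levels that were much closer to each other. Its liver medians were 142 CPM at LP (77.5 to 225), 102 at EL (19.0 to 176) and 175 at ML (120 to 288), and its muscle medians 74.8 (23.5 to 168), 117 (21.7 to 244) and 85.1 (27.1 to 141). The tissues overlapped at every time-point. Liver was 1.99-fold higher at LP (log2 0.995 ± 0.225, adjusted p = 3.77e-05) and 2.31-fold higher at ML (1.21 ± 0.23, 9.91e-07), in 15 of 16 cows each time. At EL the log2 difference was 0.0067 ± 0.2225 (adjusted p = 0.978), with liver higher in 10 of 16 cows.

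The call itself was common in this contrast: 87.2% of 14613 genes differed between the tissues at LP, 87.8% at EL and 86.5% at ML. The median log2 difference over all genes was 0.20, 0.13 and 0.22, against 0.070, 0.090 and 0.069 when the 32 libraries of a time-point were scaled alone, so small differences between tissues are relative to that shift. Libraries of liver lay wholly above those of muscle for 26.2% of genes at LP, 20.9% at EL and 26.9% at ML.

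**Figure D1:**
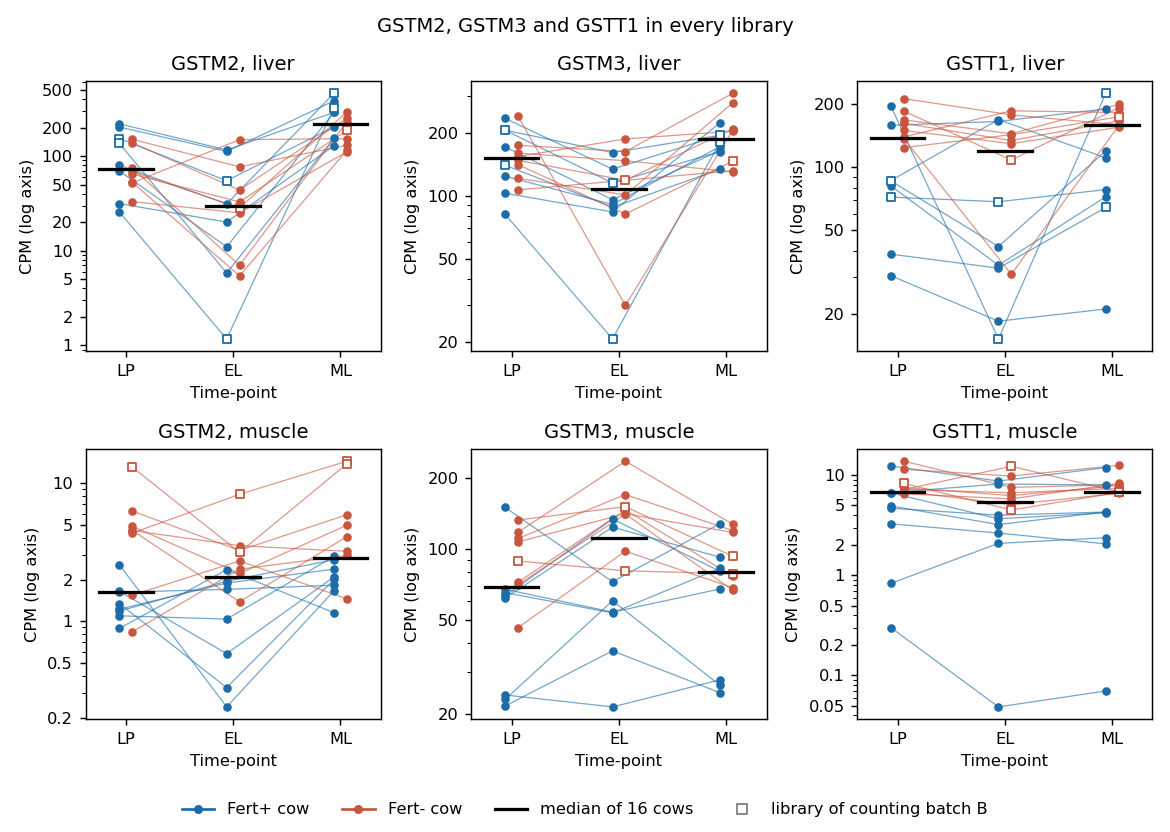
CPM of the 3 genes (log axis, TMM factors within each tissue) by time-point in liver (top) and muscle (bottom), with a line per cow, black bars for medians of 16 cows and open squares for libraries of counting batch B. The liver median of GSTM2 was lowest at EL and highest at ML. In muscle, cow 3397 was the lowest line of GSTT1 at every time-point, and it lay apart from the others at EL and ML.

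The other glutathione S-transferases put these values in context. Of 24 family symbols, 11 besides the 3 genes could be tied to an identifier, through lists that were themselves drawn from genes the study selected. At LP, 8 of the 11 were higher in liver and 2 were higher in muscle, with a median log2 difference of 5.23 against 0.20 over all genes tested. The alpha-class genes GSTA1 (log2 8.66 ± 0.50, adjusted p = 3.86e-29) and GSTA2 (12.32 ± 0.42, 2.93e-46), which are abundant hepatic conjugating enzymes, lay above GSTM2, as did MGST1, a microsomal enzyme (6.90 ± 0.23, 7.89e-47), and the theta-class gene GSTT3 (10.49 ± 0.35, 2.92e-47). GSTZ1, an enzyme of tyrosine breakdown (5.23 ± 0.13, 9.26e-58), and GSTK1, of mitochondria and peroxisomes (4.003 ± 0.124, 1.93e-49), lay near GSTM2 and GSTT1. The 2 genes that were lower in liver, named after their values were seen, were GSTP1, the pi-class enzyme of many extrahepatic tissues (-1.68 ± 0.22, 9.22e-11), and the microsomal MGST3 (-1.30 ± 0.11, 7.74e-19). Of these 14 genes, GSTM3 was the one called at LP and ML but not at EL.

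**Figure D2:**
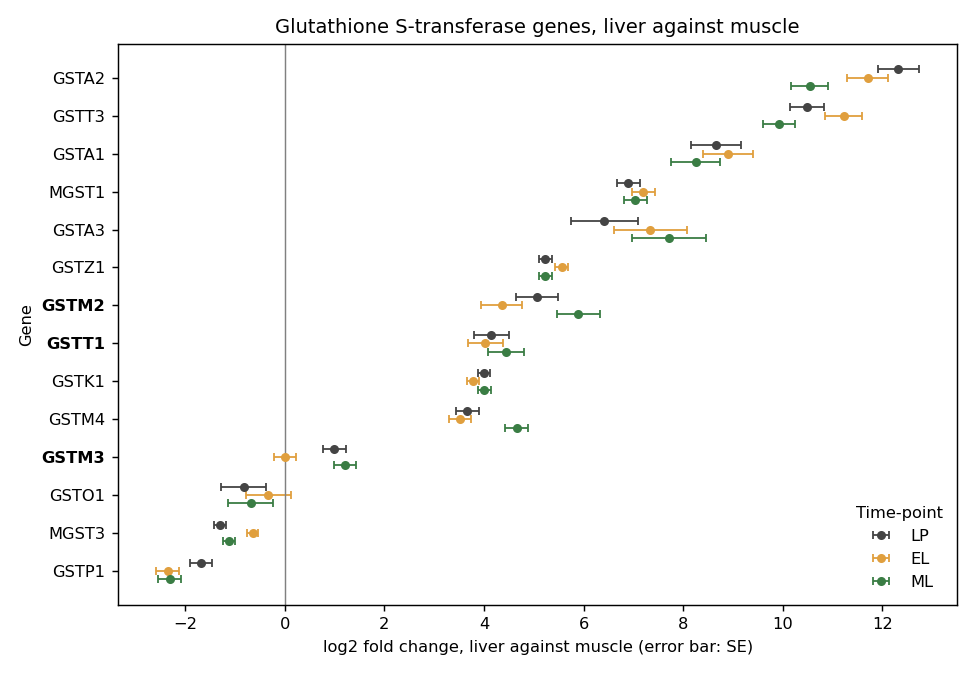
Fitted log2 fold change of liver against muscle (horizontal axis, with SE) for the 3 genes in bold and 11 other glutathione S-transferase genes at LP, EL and ML. GSTM2 and GSTT1 lay between 4.03 and 5.90, and GSTM3 lay at 0.995, 0.0067 and 1.21.

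Within liver, GSTM2 and GSTM3 rose from early to mid lactation, and no difference between time-points passed the test for GSTT1 without the block. From here on, CPM are scaled within a tissue. GSTM2 had liver medians of 72.2 CPM at LP (range 25.7 to 219), 29.9 at EL (1.17 to 149) and 216 at ML (111 to 461). It rose 5.08-fold from EL to ML (log2 2.35 ± 0.42, adjusted p = 4.88e-05), and did so in all 16 cows, by between 1.02-fold in cow 426 and 276-fold in cow 3847, whose libraries of both time-points belong to counting batch B. It was also higher at ML than at LP (log2 1.26 ± 0.41, adjusted p = 0.0341), in 15 of 16 cows, a call that was lost without counting batch B (1.21, adjusted p = 0.0645) and with any 1 of the cows 419, 426, 430, 782, 829 and 1179 left out (1.16 to 1.24, adjusted p = 0.0514 to 0.0733). Between LP and EL the difference was -1.09 ± 0.41 (adjusted p = 0.117), with 15 of 16 cows lower at EL, and with cow as a block, which compares each cow with itself, it was -1.42 ± 0.38 (adjusted p = 0.0368). Without cow 426 and with no block it was -1.40 (adjusted p = 0.0272). Without counting batch B and no block it was -0.90 (adjusted p = 0.373).

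The GSTM3 liver medians were 151 CPM at LP (81.4 to 239), 108 at EL (20.7 to 187) and 187 at ML (130 to 308). GSTM3 rose 1.77-fold from EL to ML (log2 0.82 ± 0.19, adjusted p = 0.000714), in 15 of 16 cows. The difference between EL and LP was -0.54 ± 0.19 (adjusted p = 0.095; 0.0636 with cow as a block), with 14 of 16 cows lower at EL, and it was -0.60 without cow 426 (adjusted p = 0.0471). ML and LP differed by 0.28 ± 0.19 (adjusted p = 0.345).

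The GSTT1 liver medians were 138 CPM at LP (30.4 to 213), 119 at EL (15.1 to 187) and 159 at ML (21.1 to 226). No pair of time-points passed the test, with adjusted p values of 0.487 for EL against LP, 0.113 for ML against EL and 0.718 for ML against LP. With cow as a block, the log2 difference of 0.62 ± 0.21 between ML and EL passed (adjusted p = 0.0174), and 13 of 16 cows were higher at ML. It also passed with no block when cow 3434 was left out (0.73, adjusted p = 0.0385).

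Calls between time-points in liver were made for 3.25% of 13815 genes for EL against LP, 38.2% for ML against EL and 12.5% for ML against LP. With cow as a block the first of these shares was 3.07% and the second 41.8%. The calls for EL against LP changed with few libraries: 449 genes were called, and 0 without counting batch B, where 1781 genes had an unadjusted p under 0.05. Of 11 other glutathione S-transferases, 5 rose from EL to ML and none fell, a number of calls near the share of 38.2% over all genes. GSTM4 rose by log2 1.20 ± 0.23 (adjusted p = 0.000133), GSTA2 by 1.04 ± 0.23 (0.000629), the theta-class gene GSTT3 by 0.86 ± 0.21 (0.00123), the microsomal MGST1 by 0.70 ± 0.21 (0.00849) and GSTK1 by 0.31 ± 0.09 (0.00411). The median of the 11 was 0.31, against -0.01 over all genes tested. GSTA2 (-0.78 ± 0.23, 0.0486) and GSTK1 (-0.29 ± 0.09, 0.0472) were also lower at EL than at LP, a contrast with no call without counting batch B.

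Of 7 matched genes of the glutathione synthesis and recycling list, 1 rose and 3 fell in liver from EL to ML, and a difference between this list and the transferases was not tested. Over all genes 38.2% were called for this contrast, and the counts of the small lists in this paragraph were not tested against that share. GCLC, the catalytic subunit of the first enzyme of glutathione synthesis, had a log2 difference of -0.066 ± 0.285 (adjusted p = 0.876). SLC7A11, which the NRF2 list also holds, the cystine transporter subunit that supplies cysteine for glutathione synthesis, fell by 4.50 on the log2 scale (SE 0.79, adjusted p = 3.46e-05). CHAC1, which degrades glutathione, fell by 4.30 (SE 0.77, 4.98e-05). Both were at low levels, with a few high libraries at EL: CHAC1 had a median of 0.618 CPM at EL (highest 40.0) and 0.155 at ML (highest 0.522), and SLC7A11 0.253 (highest 4.83) and 0.0365 (highest 0.202). SLC3A2, the partner subunit of that transporter, fell by 0.74 (SE 0.18, 0.00166), and HAGH, a glyoxalase that works with glutathione, rose by 0.38 (SE 0.12, 0.00842). Of 12 peroxidase, peroxiredoxin and thioredoxin genes, 3 rose and 3 fell, and of 10 genes of the NRF2 list, 1 rose and 4 fell. Of the 2 matched exporters of conjugates, ABCC5 rose and ABCC4 did not pass.

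Liver at EL also differed between cows in its content of neutrophil markers. Of the cows with the highest sums, 3847 and 164 had the lowest GSTM2 and GSTM3, but GSTM2 was also low in cow 756, whose sum was low. Summed over 4 markers, 12 cows had between 13.3 and 58.5 CPM, and cows 3847, 419, 982 and 164 had 127, 139, 164 and 329 CPM. The EL libraries of cows 3847 and 419 belong to counting batch B. At EL, cow 3847 had 1.17 CPM of GSTM2, 20.7 of GSTM3 and 15.1 of GSTT1, each the lowest of the 16 cows, and cow 164 had 5.43, 29.9 and 30.8 CPM. Cow 756, with a neutrophil sum of 19.2 CPM, had 5.81 CPM of GSTM2, close to cow 164. Of the other cows with high sums, 982 had 7.015 CPM of GSTM2 and 419 had 28.5, near the EL median of 29.9. Cow 3397, with a neutrophil sum of 15.9 CPM, had 18.4 CPM of GSTT1, under the level of cow 164. Across the 16 libraries, the correlation with the neutrophil sum was r = -0.55 for GSTM2, -0.60 for GSTM3 and -0.13 for GSTT1, as a description. Other marker lists varied with the genes as well: in the same order, r was 0.49, 0.67 and 0.53 for the sum of 3 adipocyte markers (0.187 to 5.75 CPM) and 0.38, 0.48 and 0.43 for the muscle fibre sum (11.7 to 21.5 CPM), and it lay between -0.45 and 0.37 for the other 5 lists. Hepatocyte marker sums of cows 3847 and 164 were 155025 and 181319 CPM, above the EL median of 150665 over 16 cows. Without these 4 cows, GSTM2 (log2 1.91 ± 0.42, adjusted p = 0.0016) and GSTM3 (0.56 ± 0.15, 0.00861) still rose from EL to ML, while GSTM2 no longer passed for ML against LP (1.02, 0.107) and no gene was called for EL against LP (0 genes, with 1224 at an unadjusted p under 0.05). These cows were chosen after the values were seen, and the part of other cell types or of the counting batch in the low levels was not tested.

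**Figure D3:**
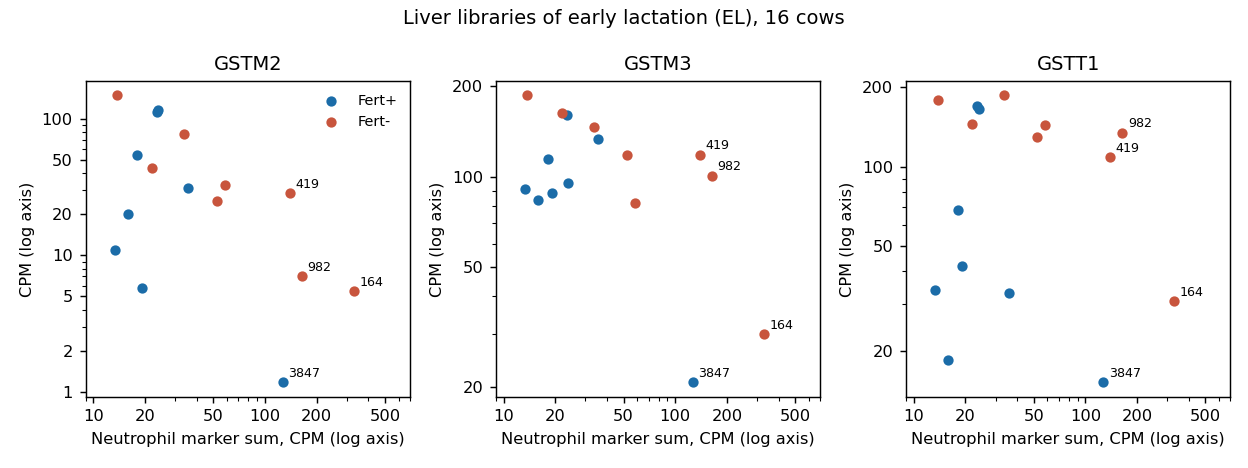
CPM of the 3 genes (vertical log axes) against the sum of 4 neutrophil markers (horizontal log axes) in the 16 liver libraries of EL, coloured by genotype, with the 4 cows above 100 CPM of markers numbered. Cows 3847 and 164 lay lowest for GSTM3, whereas cows 419 and 982 lay near the other cows for GSTM3 and GSTT1.

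In muscle, GSTM2 rose from EL to ML by log2 0.83 ± 0.30 (adjusted p = 0.0166), in 13 of 16 cows, from a median of 2.08 CPM (0.239 to 8.30) to 2.86 (1.15 to 14.4), and its level at LP was 1.63 CPM (0.834 to 13.1). The difference between EL and LP was -0.40 ± 0.31 (adjusted p = 0.282). Muscle GSTM2 counts were small, with a median of 42.5 read pairs per library and a lowest library of 4.

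GSTM3 in muscle had its highest median at EL, the time-point of its lowest median in liver. Its medians were 69.2 CPM at LP (21.6 to 151), 111 at EL (21.4 to 237) and 79.7 at ML (24.6 to 129), and 11 of 16 cows were higher at EL than at LP. The differences were 0.42 ± 0.25 for EL against LP (adjusted p = 0.147) and -0.34 ± 0.25 for ML against EL (0.237), and without cow 430 the first was 0.59 (0.032). Within cows the spread was smaller: with cow as a block they were 0.49 ± 0.13 (adjusted p = 0.00187) and -0.38 ± 0.13 (0.0107). GSTT1 in muscle had medians of 6.82, 5.46 and 6.79 CPM at LP, EL and ML, and none of its 3 differences passed the test with cow as a block (smallest adjusted p = 0.055) or without it (0.499).

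The background in muscle was large around calving, with 53.9% of 12675 genes called for EL against LP, 59.4% for ML against EL and 6.08% for ML against LP (57.6% and 63.3% for the first 2 with cow as a block). The summed level of 13 muscle fibre identifiers went from a median of 237774 CPM at LP to 91734 at EL and 270261 at ML, and its part in the muscle values was not tested. Of the NRF2 list, 10 of 23 symbols were matched, through the study's own gene lists. At EL, 7 of the 9 tested here rose and none fell, with a median log2 difference of 0.52 against 0.02 over all genes tested. HMOX1, the haem-degrading enzyme and a classical NRF2 target, rose by log2 2.38 ± 0.20 (adjusted p = 1.18e-12), SRXN1, which repairs oxidised peroxiredoxins, by 2.46 ± 0.33 (5.00e-08) and the ferritin light chain FTL by 1.54 ± 0.19 (6.87e-09). Of 6 genes of the synthesis and recycling list, 3 rose and 2 fell. GCLC, which the NRF2 list also holds, rose by 0.46 ± 0.13 (0.00313), SLC3A2 by 0.73 ± 0.17 (0.000235) and CHAC1 by 2.27 ± 0.55 (0.0006). The glyoxalase GLO1 fell by 0.67 (SE 0.07, 3.11e-10) and IDH1, an enzyme that makes NADPH, by 0.44 (SE 0.11, 0.00071). Of 8 other transferases tested in muscle, 3 fell at EL and none rose: MGST3 (-0.80 ± 0.10, 3.90e-09), MGST1 (-0.78 ± 0.13, 3.70e-06) and GSTZ1 (-0.54 ± 0.10, 2.77e-05). Without the block, none of GSTM2, GSTM3 and GSTT1 was called for this contrast.

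The time course was tested directly for a difference between the tissues. For GSTM3, the change from LP to EL was lower in liver than in muscle by log2 0.99 ± 0.32 (interaction -0.99, adjusted p = 0.0135) and the change from EL to ML was higher by 1.20 ± 0.32 (0.00151). For GSTM2, the change from EL to ML was larger in liver by 1.54 ± 0.53 (0.016), and the other 2 interactions had adjusted p values of 0.356 and 0.37. No GSTT1 interaction passed (adjusted p 0.5 to 0.904). Over all genes, 25.7% had such an interaction for EL against LP, 35.9% for ML against EL and 7.31% for ML against LP. The split of those calls depended on the scaling: for EL against LP, 1468 were above 0 and 2285 under 0 with TMM and 2039 and 1648 with RLE factors, and for ML against EL, 3019 and 2225 with TMM and 2339 and 2779 with RLE. The 3 called interactions of GSTM2 and GSTM3 kept their sign and their call with RLE factors.

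Ordered by median on the common scale, the levels of GSTM2 and GSTT1 placed each liver time-point (ML, LP, EL) above each muscle time-point. Of neighbours within a tissue in that order, liver ML against LP and muscle ML against EL differed for GSTM2, and none did for GSTT1. The liver call was lost without counting batch B and with any 1 of 6 cows left out, as given above. The GSTM3 order was liver ML, liver LP, muscle EL, liver EL, muscle ML and muscle LP, with overlapping libraries between each pair of neighbours.

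On the mean over the time-points, GSTT1 had the highest correlation of the 3 genes between a cow's level in liver and its level in muscle. The level of a cow was taken as the mean log2(CPM + 1) over LP, EL and ML. For GSTT1, the correlation between tissues across 16 cows was r = 0.834 (rho = 0.765; permutation p = 0.00027 over 100000 permutations, adjusted p = 0.0328 over 11886 genes). Such a correlation was called for 1.09% of genes, and the median gene had r = 0.14. The muscle levels are also those from which the study listed the 3 genes, which limits this comparison. GSTM3 had r = 0.487 (rho = 0.212; permutation p = 0.059, adjusted p = 0.441), which fell to 0.172 without cows 996 and 3847, and GSTM2 r = -0.148 (rho = 0.00; permutation p = 0.583, adjusted p = 0.893).

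Cow 3397 carried the lowest GSTT1 in both tissues. In liver it had 30.4, 18.4 and 21.1 CPM at LP, EL and ML, and in muscle 0.300, 0.0485 and 0.0700 CPM, from 5, 1 and 1 read pairs. Cow 426 had the highest mean in both tissues, with 213, 178 and 160 CPM in liver and 11.5, 9.84 and 12.6 CPM in muscle. Without cows 430 and 3397, the 2 farthest from the liver median, r was 0.581 (permutation p = 0.0247), so part of the strength of the relation rested on them. With the genotype means removed r was 0.751 (permutation p = 0.00279). Within the 8 Fert+ cows it was 0.815 (exact permutation p = 0.0169) and within the 8 Fert- cows, which spanned a narrower range, 0.119 (exact permutation p = 0.806). GSTM3 had r = 0.763 within Fert+ cows (exact permutation p = 0.0132) and -0.435 within Fert- cows (exact permutation p = 0.279), and GSTM2 0.597 (exact permutation p = 0.118) and -0.423 (exact permutation p = 0.287).

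At LP the GSTT1 correlation was 0.852 (rho = 0.862; permutation p = 0.00024), at ML it was 0.952 (rho = 0.821; permutation p = 1e-05, the smallest that the permutations can give) and at EL only 0.386 (rho = 0.285; permutation p = 0.137). These are unadjusted values from 9 such correlations. Without the 2 cows farthest from the liver median, r was 0.786 at LP (permutation p = 2e-05), 0.839 at ML (permutation p = 0.00022) and 0.333 at EL (permutation p = 0.244), so the relation was not detected at EL with or without them. GSTM3 had r = 0.47 at LP (permutation p = 0.0662), 0.498 at EL (rho = 0.391; permutation p = 0.0493, 0.148 adjusted over the 9; 0.532 without cows 164 and 3847, permutation p = 0.0502) and -0.132 at ML (permutation p = 0.629), and GSTM2 -0.31, 0.237 and -0.237 (permutation p = 0.241, 0.377 and 0.38). One of the cows left out of the GSTT1 correlation at EL was cow 3847, whose liver went from 196 CPM at LP to 15.1 at EL and 226 at ML, while its muscle held 12.4, 8.76 and 11.96 CPM. Its EL and ML liver libraries belong to counting batch B. Over the libraries outside that batch, the GSTT1 correlation of the cow means was 0.915 (15 cows, permutation p = 1e-05).

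Differences between cows made up most of the spread of GSTT1 in muscle. After the means of the time-points were removed, 91.2% of its variance in muscle and 58.6% in liver lay between cows, against a median of 16.2% and 15.6% over all genes. GSTM3 had 78.9% in muscle but 15.1% in liver, and GSTM2 61.5% and 26.7%. The study listed the 3 genes for a muscle difference between groups of cows at every time-point. Their muscle shares are therefore not independent of that choice when set against all genes. The GSTT1 shares were not computed without cow 3397, the lowest cow in both tissues. With the genotype means removed as well, the share was 87.8% for GSTT1, 72.5% for GSTM3 and 34.6% for GSTM2 in muscle, and 40.9%, 14.3% and 28.6% in liver. As a description over 16 cows, the levels at LP and ML correlated in muscle at 0.79 for GSTM2, 0.95 for GSTM3 and 0.92 for GSTT1. In liver the same correlation was 0.93 for GSTT1 but 0.30 for GSTM2 and 0.10 for GSTM3.

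**Figure D4:**
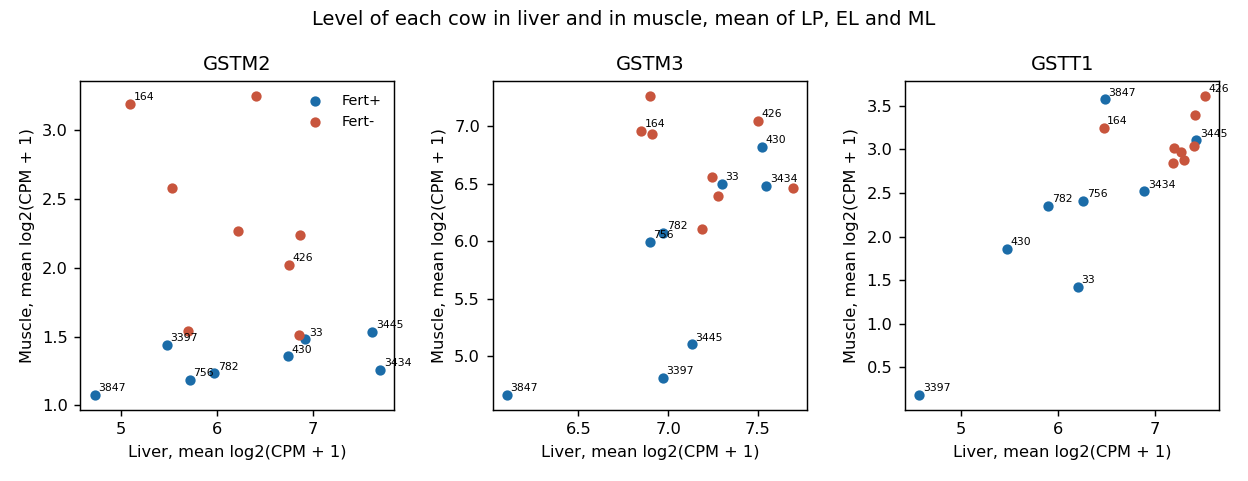
Mean log2(CPM + 1) over LP, EL and ML of each of the 16 cows in liver (horizontal axis) and muscle (vertical axis), with the Fert+ cows and cows 164 and 426 numbered. For GSTT1 the points followed a rising line from cow 3397 to cow 426 (r = 0.834), and for GSTM2 they did not (r = -0.148).

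The genotypes were compared in each tissue and at each time-point, the contrast for which the samples were collected. None of the 3 genes was called in any of the 6 comparisons by the quasi-likelihood test, and hardly any gene was: 0 genes in liver at each time-point and 0, 1 and 0 genes (0.00831% at EL) in muscle at LP, EL and ML. Liver had 842, 1530 and 1640 genes at an unadjusted p under 0.05 for LP, EL and ML, and muscle had 800, 1426 and 917. DESeq2 called 0, 6 and 77 genes in the liver comparisons and 27, 119 and 10 in those of muscle. With edgeR's exact test and a single common dispersion, the kind of test the study used, calls were made for 2.38% of liver genes at LP, 2.31% at EL and 2.11% at ML, and for 1.79%, 3.64% and 1.78% of muscle genes. That test called each of the 3 genes in muscle at every time-point and GSTT1 in liver at every time-point. It gives every gene the same biological spread between cows.

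GSTT1 had lower medians in Fert+ than in Fert- cows in both tissues, without passing the quasi-likelihood test. In liver the Fert+ cows had a median of 83.8 CPM at LP (30.4 to 196), 38.0 at EL (15.1 to 169) and 94.8 at ML (21.1 to 226), and the Fert- cows 156 (124 to 213), 139 (30.8 to 187) and 171 (156 to 200). The log2 differences were -0.77 ± 0.30, -0.96 ± 0.49 and -0.66 ± 0.32 (adjusted p = 0.731, 0.442 and 0.408). In muscle the medians were 4.81, 3.45 and 4.26 CPM in Fert+ cows and 7.40, 6.48 and 7.64 in Fert- cows, with differences of -0.79 ± 0.44, -0.83 ± 0.46 and -0.79 ± 0.45 (adjusted p = 0.79, 0.489 and 0.713).

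Outside liver at EL, largely the same animals lay low in each tissue. Cows 33, 430, 756, 782, 3397 and 3434, 6 of the 8 Fert+ cows, lay under every Fert- cow in liver at LP and ML and in muscle at EL and ML, and 5 of them did so in muscle at LP. In liver at EL the lowest Fert- cow had 30.8 CPM, and 2 Fert+ cows lay under it, cow 3397 of these 6 and cow 3847. The other two Fert+ cows, 3445 and 3847, had 159 to 226 CPM in liver at LP and ML, inside or above the Fert- range. On the mean over the time-points, the exact permutation test of the 2 genotypes gave p = 0.00389 in liver and 0.0168 in muscle. These are unadjusted values from 24 such tests, and the smallest p that 8 against 8 cows can give is 0.000155. Both tissues come from the same cows, so the liver value is not independent of the muscle contrast for which the gene was listed. The genotype difference was not shown to differ between tissues (interaction 0.02, -0.15 and 0.12 on the log2 scale at LP, EL and ML, adjusted p of 0.945 or more).

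GSTM2 had lower medians in Fert+ than in Fert- cows in muscle, but not in liver at LP and ML. Its muscle medians were 1.28 CPM at LP (0.885 to 2.57), 1.37 at EL (0.239 to 2.36) and 2.05 at ML (1.15 to 2.94) in Fert+ cows, against 4.54 (0.834 to 13.1), 2.94 (1.38 to 8.30) and 4.52 (1.45 to 14.4) in Fert- cows. At each time-point all 8 Fert+ cows lay under the Fert- median, although the groups overlapped. The log2 differences were -1.80 ± 0.40, -1.41 ± 0.43 and -1.60 ± 0.42 (adjusted p = 0.29, 0.224 and 0.49), the first of which passed without cow 982 (-1.95, adjusted p = 0.0423). Exact permutation of the cow means gave p = 0.000311, an unadjusted value from 24 such tests. The study listed GSTM2 from these muscle values, so this p is no independent evidence, and it was not recomputed without counting batch B. DESeq2 called the difference at LP (adjusted p = 0.00435), as it did for 0.226% of genes.

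The 5 muscle libraries of counting batch B, all Fert-, included the highest values. Muscle GSTM2 had a median of 13.1 CPM in these 5 libraries and of 2.005 CPM in the other 43. Without them the differences were -1.41 ± 0.33, -1.02 ± 0.41 and -0.85 ± 0.25 (adjusted p = 0.3, 0.396 and 0.51). All 3 muscle libraries of cow 419 (13.1, 3.15 and 13.8 CPM at LP, EL and ML) belong to the batch, so the cow and the batch cannot be told apart there. Cow 164 had 4.34 CPM at LP outside the batch and 8.30 and 14.4 CPM at EL and ML inside it. The sum of the endothelial markers, of which 2 of 6 listed had a symbol, was 67.8 to 87.1 CPM in Fert+ and 96.8 to 138 in Fert- cows in muscle at LP. Symbols came from lists of genes that the study selected, so which markers were matched is not independent of its genotype comparison. The genotypes overlapped in this sum at EL (82.5 to 192 and 110 to 187 CPM) and at ML (64.2 to 135 and 89.1 to 224 CPM). How many other genes had genotype ranges that did not overlap at LP was not counted, and the part of these markers in the muscle values was not tested.

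In liver, GSTM2 had medians of 109, 25.7 and 291 CPM in Fert+ cows and 66.6, 30.6 and 170 in Fert- cows at LP, EL and ML. The differences of 0.54 ± 0.43, -0.07 ± 0.76 and 0.59 ± 0.26 on the log2 scale did not pass (adjusted p = 0.874, 0.973 and 0.374). The tissue by genotype interaction of GSTM2 was 2.33 ± 0.75 at LP and 2.19 ± 0.74 at ML, with adjusted p values of 0.444 at LP, 0.347 at EL and 1 at ML. This interaction was called for 0.00684% of genes at LP, 3.41% at EL and 0.0% at ML (0 genes, with 693 at an unadjusted p under 0.05 and 29 called by DESeq2), and in liver itself the genotype call was made for 0.0% of genes.

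The GSTM3 differences between the genotypes in muscle were -0.66 ± 0.36 at LP, -1.07 ± 0.31 at EL and -0.51 ± 0.33 at ML on the log2 scale (adjusted p = 0.776, 0.222 and 0.747). At EL, Fert+ cows had a median of 57.2 CPM (21.4 to 134) and Fert- cows 144 (80.99 to 237), and 6 of 8 Fert+ cows lay under every Fert- cow. Cows 3397, 3445 and 3847 had 21.4 to 60.4 CPM in muscle over the time-points and were under every Fert- cow each time. Cow 430, also Fert+, lay above every Fert- cow at LP (150.5 CPM, against a highest Fert- cow of 133) and at ML (128.5 against 127.7), and among the low cows at EL (72.8 CPM). In liver the GSTM3 differences lay between -0.28 and 0.03. No gene of the 3 had a genotype by time-point interaction in either tissue (adjusted p of 0.96 or more), a test that called 0 genes (0.0%) in both, with 914 in liver and 857 in muscle at an unadjusted p under 0.05.

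**Figure D5:**
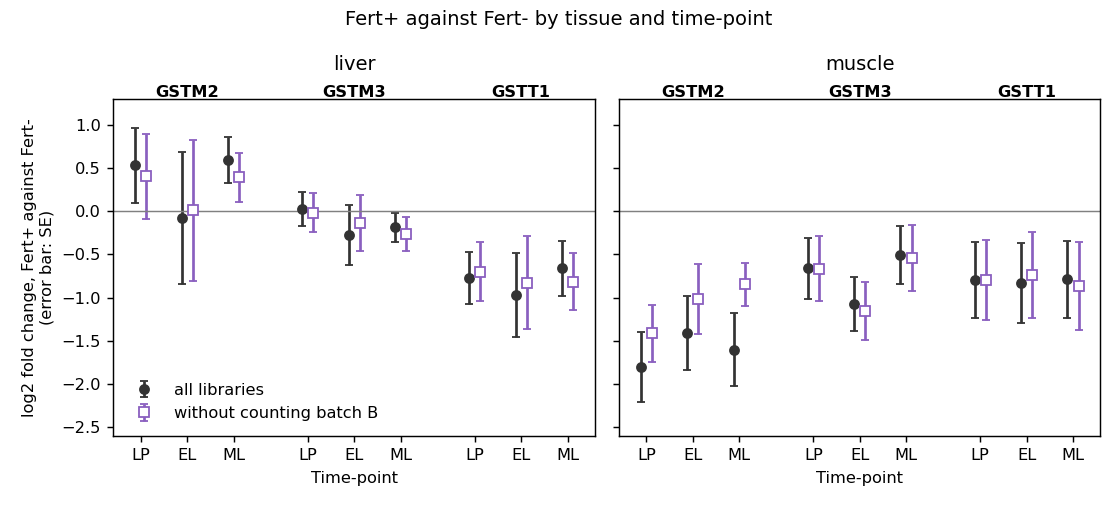
Fitted log2 fold change of Fert+ against Fert- cows (vertical axis, with SE) at each time-point in liver (left) and muscle (right), over all libraries (filled circles) and without counting batch B (open squares). GSTT1 lay between -0.66 and -0.96 in both tissues over all libraries, and GSTM2 lay under 0 in muscle but not in liver at LP and ML.

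Among other genes, those with the most similar profile were found by the correlation of log2(CPM + 1) over the 48 libraries of a tissue after removal of time-point means. In liver, the genes most like GSTM2 (r = 0.91) and GSTM3 (0.86) had no symbol here. Among the named ones, GSTM2 went with GSTM4 (0.82). GSTM3 went with CYP27A1 (0.83), a sterol hydroxylase of bile acid synthesis, and with GSTM4 (0.79). GSTT1 went with DDO (0.78), which oxidises D-aspartate, with GSTT3 (0.74) and with ACAA2 (0.72), a thiolase of fatty acid oxidation. GSTM2 and GSTM3 correlated with each other at 0.71 in liver and 0.50 in muscle. GSTT1 correlated with them at 0.44 and 0.37 in liver and at 0.31 and 0.25 in muscle. In muscle, the named genes were CCBL1 for GSTM2 (0.73), a lyase that acts on cysteine conjugates made from glutathione adducts, and PINK1 for GSTT1 (0.61), a mitochondrial kinase, while the 3 most similar genes of GSTM3 had no symbol here.

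Some of these pairs are neighbours on the chromosome, as far as symbols alone tie them to the ARS-UCD2.0 assembly. There, GSTM3, GSTM2 and the locus that carries the older symbols GSTM1 and GSTM4 lie in a row with other loci. Another locus, between GSTM3 and GSTM2, also carries the older symbol GSTM1. GSTT1 lies beside GSTT2, whose older symbol is GSTT3. Such genes can share sequence, and a read pair from a shared stretch can align to more than 1 copy. The authors kept primary alignments in proper pairs and counted the pairs that fell in a single gene. Whether pairs that aligned equally well elsewhere were left out is not given in the sources used here, so the mu-class values are uncertain to that extent. Strand is not stated either. The assignment of reads between copies was not tested. GSTT3 had 0 to 0.610 CPM in muscle (median 0.0896, with no read in 17 of 48 libraries), against a median of 170 CPM in liver. GSTM4 had 6.97 to 32.2 CPM in muscle and 40.0 to 671 in liver.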

How the data were processed

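The authors sequenced poly-A RNA as TruSeq v2 paired-end libraries, trimmed the reads with Trimmomatic, aligned them with STAR to UMD3.1 (Ensembl gene models), kept primary alignments in proper pairs and counted read pairs per gene with featureCounts. They deposited raw counts, 1 table per library. The tool and build names come from the submitters' processing notes and the study's methods. A further 96 count columns without a sample name were not used. Transcript lengths were not used here, so CPM are not per length.

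Counts were tested with edgeR 4.0.16 (R 4.3.3): TMM factors, genes of filterByExpr, robust quasi-likelihood fit, two-sided tests and Benjamini-Hochberg adjustment over all genes tested, called at an adjusted p under 0.05. Tissues were compared in 1 fit of 96 libraries with a mean for each tissue, time-point and genotype, time-points in a fit of 48 libraries per tissue, and genotypes in fits of 16. DESeq2 1.42.0, RLE factors, no filter, counting batch as a term or left out, cow as a block, edgeR's exact test with a common dispersion and each cow left out were alternatives. Cow levels between tissues were compared by Pearson's r of log2(CPM + 1), with a pseudocount of 1 and 100000 permutations (scipy 1.17.1, numpy 2.4.6), and single genotype differences by an exact permutation test. Same-numbered samples come from the same animal. Their residuals correlated at over 0.1 in 39 of 48 liver and 42 of 48 muscle pairs, so blocked values are printed where they change a call. Within groups, none of 336 pairs of libraries held identical counts (0 pairs). The fits were tested on simulated data with known changes.

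Symbols came from the study's gene lists (2165 identifiers). The genes and lists were chosen with earlier results of these data known. Named genes were the 3 genes, up to 6 per list with the smallest adjusted p, and for each gene and tissue the 3 most correlated genes, where a symbol was known. Gene order was read from a RefSeq gene table of ARS-UCD2.0, and no sequence or coordinate was used. Symbols were matched for 11 of 24 transferases, 7 of 23 genes of glutathione synthesis and recycling, 12 of 28 peroxidases and thioredoxins, 10 of 23 NRF2 genes and 2 of 8 exporters. Replicates are different cows, and p-values for time-points and tissues without the block treat the libraries of a cow as independent.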

Additional observations from a re-analysis of the deposited data

Results flagged for a closer look

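Among 36 groups of 8 libraries, 5 libraries lay apart from the others of their group by Dixon's criterion (95% level), and chance gives about 1 such library in 20 groups. In liver at EL, cow 3847 had 20.701 CPM of GSTM3 (next Fert+ cow 83.7), and cow 164 had 29.937 CPM of GSTM3 (next Fert- cow 81.7) and 30.842 CPM of GSTT1 (next 109). Their neutrophil marker sums of 127 and 329 CPM were among the 4 highest of that time-point, and the library of cow 3847 belongs to counting batch B. In muscle, cow 164 had 8.297 CPM of GSTM2 at EL (next Fert- cow 3.52, counting batch B) and cow 426 had 12.574 CPM of GSTT1 at ML (next 8.29).

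The change over time differed between tissues by a direct test for GSTM3 from LP to EL (log2 -0.99, adjusted p = 0.0135, edgeR) and from EL to ML (1.2, 0.00151), and for GSTM2 from EL to ML (1.54, 0.016).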

How the results depend on the processing

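Of 78 results of the 3 genes, 53 kept their sign and their side of the threshold under every alternative run, and 25 did not. Agreement between tissues was judged here by the unadjusted permutation p. Near 0, the sign turned for GSTM2 between genotypes in liver at EL (0.003 with counting batch as a term, 0.012 without batch B), GSTM3 between genotypes in liver at LP (-0.014 in both), GSTM3 between tissues at EL (-0.044 with no gene filter, -0.017 in the 32 libraries alone) and the tissue by genotype interaction of GSTT1 at EL (0.095 with cow as a replicate block). GSTM2 for ML against LP in liver lost its call with no gene filter (1.25), without batch B (1.21), without the 4 cows of high neutrophil sums (1.02) and with any 1 of 6 cows left out (419, 426, 430, 782, 829 or 1179; adjusted p up to 0.0733).

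With cow as a replicate block, 4 values gained a call: GSTM2 in liver for EL against LP (-1.42), GSTT1 in liver for ML against EL (0.62), and GSTM3 in muscle for EL against LP (0.49) and ML against EL (-0.38). The block changed no other call of the 3 genes. The exact test with a common dispersion called GSTT1 in the liver comparisons (-0.77 at LP, -0.96 at EL, -0.66 at ML) and, for muscle in the same order, GSTM2 (-1.81, -1.41, -1.60), GSTM3 (-0.66, -1.07, -0.51) and GSTT1 (-0.79, -0.83, -0.79). DESeq2 called GSTM2 in muscle at LP (-1.80) and on sums per cow (-1.58), and gave no adjusted p for GSTM2 and GSTT1 in muscle at ML. Other than for the block, the cause was not tested.

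With each cow left out, GSTM2 in liver ranged from -1.40 to -0.98 for EL against LP and from 1.16 to 1.38 for ML against LP, GSTM3 in liver from -0.60 to -0.41 for EL against LP, GSTT1 in liver from 0.36 to 0.73 for ML against EL, and GSTM3 in muscle from 0.33 to 0.59 for EL against LP. Calls were gained by GSTM2 and GSTM3 for EL against LP in liver without cow 426 (adjusted p = 0.0272 and 0.0471), GSTT1 for ML against EL in liver without cow 3434 (0.0385), GSTM3 for EL against LP in muscle without cow 430 (0.032) and GSTM2 between genotypes in muscle at LP without cow 982 (0.0423). Between genotypes, the ranges were -0.46 to 0.48 for GSTM2 in liver at EL, -0.078 to 0.14 for GSTM3 in liver at LP and -1.96 to -1.41 for GSTM2 in muscle at LP, and between tissues r ranged from -0.338 to 0.054 for GSTM2, 0.169 to 0.582 for GSTM3 and 0.677 to 0.889 for GSTT1. The sign turned without any 1 of 6 cows for GSTM2 in liver at EL (426, 756, 782, 1000, 3397, 3847), without any 1 of 5 for GSTM3 in liver at LP (33, 430, 982, 1179, 3434) and without cow 164 for the GSTM2 agreement, and the GSTM3 agreement had an unadjusted p under 0.05 without cow 164, 829, 1179 or 3445 (0.0229 to 0.0493).

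Counts over all genes that moved by over 1.5 times were those of EL against LP in liver (449, against 271 with batch as a term, 297 with no filter, 0 without batch B, 0 without the 4 cows and 5 to 1086 with a cow left out, 5 being without cow 164), ML against EL in liver (5280, against 3444 without the 4 cows), ML against LP in liver (1721, against 1012 without cow 426), ML against LP in muscle (771, against 1189 with the block), the tissue by genotype interaction at EL (499, against 157 without batch B) and genotype at EL in 1 fit of 48 libraries (362 in liver, 566 in muscle). Small counts limit muscle GSTM2 (median 42.5 read pairs, lowest library 4) and muscle GSTT1 (114.5, lowest 1).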
